A study of Sus scrofa with 30 samples.

Results

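The rows ssc-miR-484, ssc-miR-320 and ssc-miR-1224 were 3 of the 411 ssc-miRNAs (pig miRNAs) counted in plasma of irradiated Göttingen minipigs (GMPs). They were chosen by name, as every row named ssc-miR-320, ssc-miR-484, ssc-miR-877 or ssc-miR-1224, arms included. ssc-miR-877 was not analysed here.

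Most miRNAs are released from a long primary transcript by the nuclear enzyme Drosha and are then trimmed by Dicer in the cytoplasm. miR-320 and miR-484 are known exceptions, since their hairpins start at the transcription start site, carry a 5′ cap, leave the nucleus through exportin-1 and need Dicer only. miR-877 and miR-1224 belong to the mirtrons, short introns whose ends are set by splicing instead of Drosha. Their mature forms act as other miRNAs do, by guiding Argonaute to messenger RNAs. Released into blood inside vesicles or bound to protein, they can be counted in cell-free plasma. In RefSeq (Sscrofa11.1, used for neighbours only) 2 of the 3 members had an entry. MIR320 lay within POLR3D, which encodes a subunit of RNA polymerase III. MIR1224 overlapped no listed gene and lay between ABCF3 and ALG3, an enzyme of protein glycosylation, so this annotation shows no host intron for it.

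Plasma was drawn from the same 3 male GMPs, 4 months old, at 10 time points. C7 and C1 were 7 days and 1 day before total body irradiation (TBI) with 2.2 Gy from a cobalt source, and the 8 later samples were taken 6 h after TBI (0d) and on 7 days from 1d to 20d, each named by its day. Pre-TBI is C7 with C1. The study called 0d through 7d Early, joined 10d with 14d as Mid, and named 17d Late and 20d LR, and it drew these phases from a principal component analysis of these very libraries. All 3 animals received the dose, served as the vehicle (dextrose) arm of a drug study, and did not survive. No unirradiated animal was followed over the same days, so an effect of TBI cannot be told apart from one of time or of repeated anaesthesia and bleeding.

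Of 30 libraries, 24 held at least 1000 counts and were kept. The other 6, those of minipig 3 from 3d to 20d, held 0 to 17 counts. The kept totals ran from 24341 to 550316 counts, which left 6 pre-TBI, 10 Early, 4 Mid, 2 Late and 2 LR libraries. Both Late libraries were shallow, with 29159 counts in minipig 1 and 63441 in minipig 2. Levels are given as log2 CPM, the log2 of CPM on the TMM-scaled library total with a prior count of 2, or as the percent share of a library's counts with its 95% Wilson interval. Such intervals cover counting error only. A share is relative: fewer copies of a miRNA in plasma and more copies of all the others cannot be told apart, and neither can fewer releasing cells and less RNA released per cell.

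The 3 members stood at very different levels. ssc-miR-484 was among the dominant plasma miRNAs, with the 2nd highest mean log2 CPM of all 411 rows (16.13 ± 1.22, SD, n = 24), while ssc-miR-320 ranked 143 (9.84 ± 0.37) and ssc-miR-1224 ranked 251 (8.57 ± 0.63). The share of ssc-miR-484 had a median of 8.45% and ranged from 0.285% to 16.9%. The share of ssc-miR-320 ranged from 0.0593% to 0.13%, on at least 17 counts. That of ssc-miR-1224 ranged from 0.00675% to 0.0977%, on 4 to 313 counts. They also differed in steadiness across libraries. ssc-miR-320 had the 34th smallest SD of the 411 rows, with only 8.03% of rows below it, whereas 87.8% of rows had a smaller SD than ssc-miR-484 and 41.4% a smaller SD than ssc-miR-1224. The median SD over all rows was 0.68. In the 6 pre-TBI libraries alone the SD was 0.47 for ssc-miR-320, 0.90 for ssc-miR-484 and 0.28 for ssc-miR-1224, beside a median of 0.55.

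**Figure D1:**
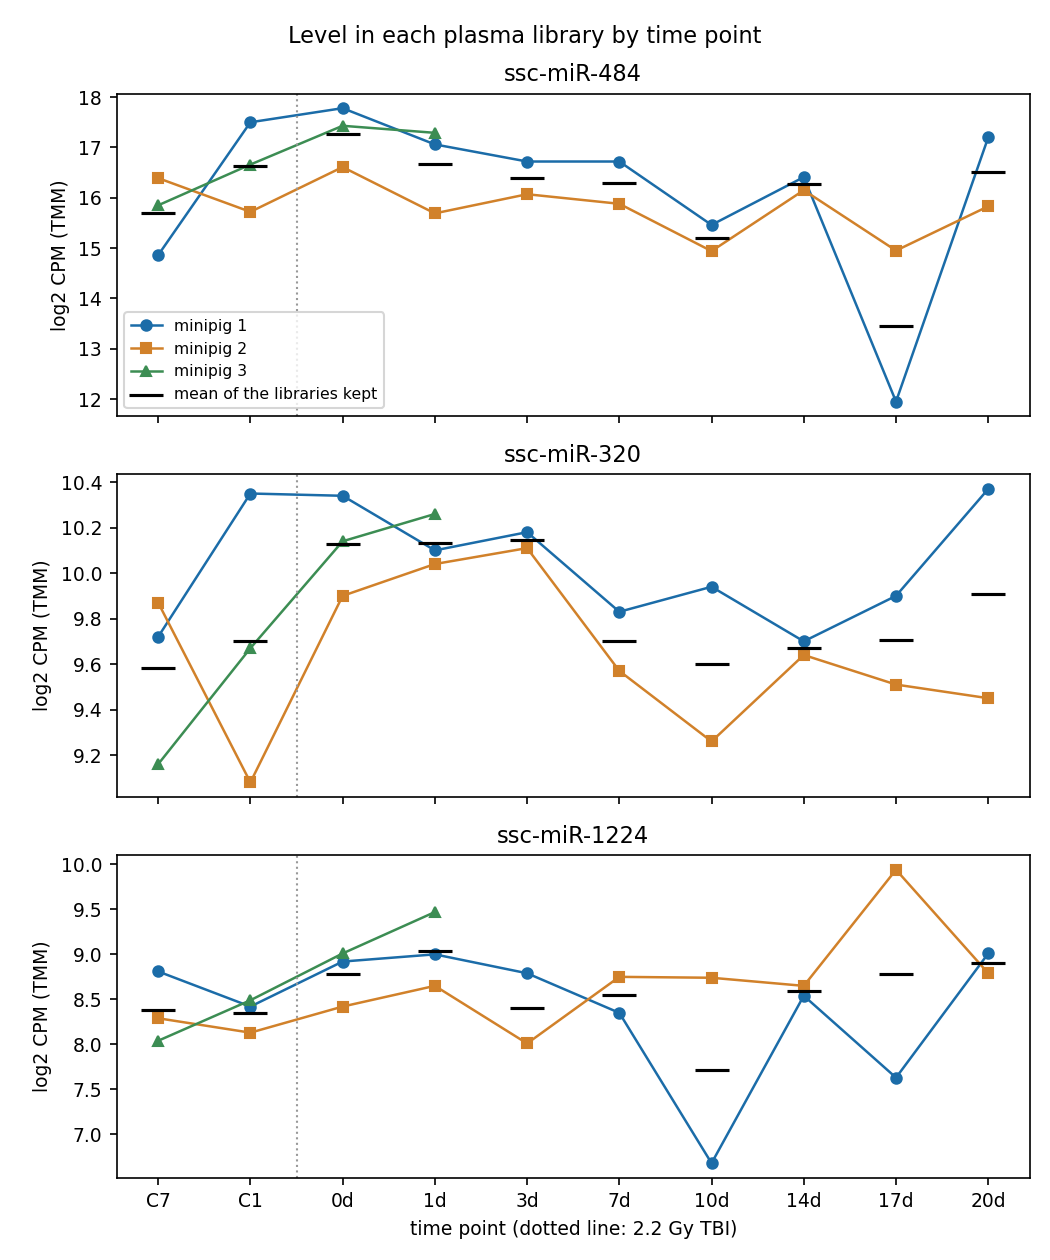
Level of each member (log2 CPM, TMM) in every kept library by time point. Points are single libraries joined within a minipig, black bars are means of the kept libraries, and the dotted line marks TBI. ssc-miR-484 was lowest at 17d in minipig 1 (11.95), ssc-miR-320 stayed between 9.08 and 10.37, and ssc-miR-1224 was lowest at 10d in minipig 1 (6.68) and highest at 17d in minipig 2 (9.94).

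Before TBI the animals differed among themselves in ssc-miR-484. Minipig 1 had 14.86 at C7 and 17.50 at C1, minipig 2 had 16.39 and 15.72, and minipig 3 had 15.85 and 16.66. The lowest of these came from the shallowest library of all (24341 counts, 604 of them ssc-miR-484), and the level was higher at C1 than at C7 in 2 animals and lower in 1. The C1 mean exceeded the C7 mean (16.63 ± 0.89 against 15.70 ± 0.78, n = 3 each), by a fitted log2 fold change of 0.98 (SE 0.74, edgeR adjusted p = 0.997). It was 0.08 without minipig 1 and 1.61 without minipig 2, where it passed the unadjusted threshold (edgeR adjusted p = 0.503). With all animals none of the 3 members passed an adjusted or an unadjusted p of 0.05 between these unirradiated time points, where 0% of all rows were called on adjusted and 0.73% on unadjusted p.

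In the Early phase all 3 members had higher means than before TBI, but no difference passed the test. ssc-miR-484 reached 16.72 ± 0.69 (n = 10) against 16.16 ± 0.90 (n = 6), with a lowest value of 15.69, a median of 16.72 and a highest of 17.78. Its top values came at 0d, where minipig 1 had 17.78, minipig 2 had 16.61 and minipig 3 had 17.43, and each of these exceeded both pre-TBI values of its own animal. Over the whole phase the Early mean exceeded the own baseline by 0.89 in minipig 1, by 0.01 in minipig 2 and by 1.11 in minipig 3. The fitted log2 fold change was 0.47 (SE 0.47, edgeR adjusted p = 0.544), and the Early and pre-TBI ranges overlapped. It was 0.92 with C7 alone as the baseline, 0.06 with C1 alone, 0.20 without minipig 1 at C7, 0.25 without minipig 3 and 0.22 with log2 library total as a covariate.

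ssc-miR-320 was more even in the Early phase. Its levels there ran from 9.57 through a median of 10.10 to 10.34, a mean of 10.05 ± 0.23 (n = 10), while the 6 pre-TBI levels were 9.72 and 10.35 in minipig 1, 9.87 and 9.08 in minipig 2 and 9.16 and 9.67 in minipig 3 (mean 9.64 ± 0.47). At 0d, 1d and 3d all 8 libraries lay between 9.90 and 10.34, and the 2 of 7d were lower, at 9.83 and 9.57. The Early mean exceeded the own baseline by 0.08, 0.43 and 0.78 in minipigs 1, 2 and 3 with TMM, and by 0.25, 0.48 and 0.27 on the library total alone. The log2 fold change was 0.36 (SE 0.21, edgeR adjusted p = 0.335). An exact permutation test that moved time labels within each animal gave a difference of 0.41 with p = 0.0341 (two-sided), or 0.333 once adjusted over the 12 tests of 3 members and 4 phases. Across its settings this permutation test gave a difference of 0.26 to 0.56, with an unadjusted p from 0.02 to 0.231. The fold change was 0.05 when all libraries were thinned to the depth of the smallest and 0.20 without minipig 3.

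ssc-miR-1224 behaved in a like way at Early, with levels from 8.01 through a median of 8.77 to 9.47 (8.74 ± 0.41, n = 10). Its pre-TBI levels were 8.81 and 8.42 in minipig 1, 8.29 and 8.13 in minipig 2 and 8.04 and 8.49 in minipig 3 (8.37 ± 0.28). The highest Early value was that of minipig 3 at 1d, on 285 counts, and the ranges overlapped. At 1d all 3 animals stood above both of their own pre-TBI values, between 8.65 in minipig 2 and 9.47 in minipig 3. The fitted Early change was 0.45 (SE 0.28, edgeR adjusted p = 0.364), and the exact permutation test gave 0.37 with p = 0.0704 (adjusted p = 0.333). The fitted change was 0.27 with thinned counts and 0.24 without minipig 3. Among all rows 0% were called at Early on adjusted p and 18.7% on unadjusted p, and of the members 0 of 3 were called on either. Under alternatives ssc-miR-320 passed the unadjusted threshold at Early with DESeq2 (0.38) and without minipig 1 (0.49), and ssc-miR-1224 did with only the 2 groups in the fit (0.45).

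At Mid the mean of ssc-miR-484 was lower than before TBI (15.74 ± 0.67, n = 4, against 16.16 ± 0.90, n = 6), that of ssc-miR-1224 was slightly lower (8.15 ± 0.98 against 8.37 ± 0.28) and that of ssc-miR-320 was level with it, and no difference passed the test. ssc-miR-484 was at 15.46 in minipig 1 and 14.94 in minipig 2 at 10d, and at 16.41 and 16.15 at 14d. Both 10d values came from libraries with 59291 and 35762 counts and lay under the 14d values of the same animals. The Mid change was -0.55 (SE 0.59, edgeR adjusted p = 0.970), and it was 0.004 with C7 alone as the baseline. ssc-miR-320 had 9.94 and 9.26 at 10d and 9.70 and 9.64 at 14d, a change of -0.05 (SE 0.26, edgeR adjusted p = 0.978), and its Mid mean of 9.64 equalled its pre-TBI mean. ssc-miR-1224 had 6.68 in minipig 1 and 8.74 in minipig 2 at 10d, then 8.54 and 8.65 at 14d. The value of 6.68 rested on 4 counts of 59291 (0.00675%, interval 0.00262% to 0.0173%), and the 3 other Mid libraries lay within 0.20 of each other. Its fitted Mid change was 0.02 (SE 0.36, edgeR adjusted p = 0.984), whereas the difference of mean log2 CPM was -0.21 (exact permutation p = 0.944). The sign differed between alternatives, and the cause was not tested. The fit gave -0.40 without minipig 2, 0.40 without minipig 1 and -0.29 with thinned counts. Of all rows 0% were called at Mid on adjusted and 5.35% on unadjusted p, and 0 of 3 members on either.

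The Late phase, a single time point with 2 libraries, held the largest differences among the members, and these did not go the same way. ssc-miR-484 gave 83 of 29159 counts in minipig 1 (0.285%, interval 0.23% to 0.353%) and 2017 of 63441 in minipig 2 (3.18%, interval 3.05% to 3.32%). In log2 CPM these were 11.95 and 14.95, which is -4.23 and -1.10 against the own pre-TBI mean. Minipig 1 stood under every other library, and minipig 2 was within the pre-TBI range, just above the 14.86 of minipig 1 at C7. The fitted log2 fold change was -2.27 (SE 0.85, a fold of 0.207, edgeR adjusted p = 0.124), and 0.487% of the 411 rows had a more negative one. The exact permutation test gave -2.71 with p = 0.111, the smallest that its 9 arrangements allow. Without minipig 1 the change was -1.28 and without minipig 2 it was -4.86, each resting on the Late library of the other animal alone. With DESeq2 on all libraries it was -2.26 (DESeq2 adjusted p = 0.0193).

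ssc-miR-1224 had opposite values in the 2 animals at Late. In minipig 1 it gave 4 of 29159 counts (0.0137%, interval 0.00533% to 0.0353%, log2 CPM 7.63), and in minipig 2 it gave 62 of 63441 (0.0977%, interval 0.0762% to 0.125%, log2 CPM 9.94). The value of minipig 2 was the highest of all 24 libraries, and that of minipig 1 was the 2nd lowest. Against the own pre-TBI means they were -0.99 and 1.72. The fitted change was 0.96 (SE 0.44, edgeR adjusted p = 0.192), which turned to -1.11 without minipig 2 and became 1.67 without minipig 1. Each of the latter values rests on the Late library of the other animal alone. The exact permutation test gave 0.42 with p = 0.556.

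ssc-miR-320 was the steady one at Late, with 9.90 in minipig 1 (20 counts) and 9.51 in minipig 2 (46 counts). Both lay inside the pre-TBI range, -0.13 and 0.04 against the own baselines. The fitted change was 0.01 (SE 0.34, edgeR adjusted p = 0.992), and across the alternative settings it lay between -0.53 and 0.01. At Late 4.38% of all rows were called on adjusted p and 22.6% on unadjusted p. Of the members 0 of 3 were called on adjusted p, while on unadjusted p ssc-miR-484 was called lower and ssc-miR-1224 higher. The unadjusted call of ssc-miR-1224 was lost on the library total alone, with thinned counts and without minipig 3. It was also lost with only the 2 groups in the fit and with C7 or C1 alone as the baseline. The same held without the row of most counts and with the animal block on thinned counts. That of ssc-miR-484 was lost with only the 2 groups, with C7 alone as the baseline and with log2 library total as a covariate. Without minipig 1, where Late rests on minipig 2 alone, its change was -1.28. The median change of all rows at Late was 0.08 with TMM and -0.21 with the library total alone, and on the latter scale the members' changes were -2.35 for ssc-miR-484, 0.79 for ssc-miR-1224 and -0.25 for ssc-miR-320.

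At LR, 3 days later, ssc-miR-484 stood at 17.20 in minipig 1 and 15.83 in minipig 2 (16.52 ± 0.97, n = 2). These libraries were deep, with 401408 and 550316 counts. Against Late the log2 fold change was 2.55 (SE 0.95, a fold of 5.86, edgeR adjusted p = 0.0992), larger than that of 99.3% of rows, and it was 0.94 without minipig 1. Against pre-TBI it was 0.28 (SE 0.72, edgeR adjusted p = 0.875). ssc-miR-320 had 10.37 and 9.45 and ssc-miR-1224 had 9.01 and 8.79 at LR. ssc-miR-1224 in both animals exceeded both of its own pre-TBI values, by a fitted change of 0.56 (SE 0.42, edgeR adjusted p = 0.593, exact permutation p = 0.111, the smallest possible), which turned to -0.33 with thinned counts and to -0.31 with the animal as a block as well. For ssc-miR-320 it was 0.28 (SE 0.32, edgeR adjusted p = 0.711), with 0.33 in minipig 1 and -0.02 in minipig 2 against the own baseline, and it turned to -0.40 with thinned counts and to -0.54 with the block as well. For LR against pre-TBI 0% of all rows were called on adjusted and 5.6% on unadjusted p, with 0 of 3 members on either. For LR against Late the shares were 0.73% and 32.1%, and of the members only ssc-miR-484 was called, on unadjusted p and higher. This call was lost with only the 2 groups in the fit, with log2 library total as a covariate and with every library of at least 1 count. The change of 0.94 without minipig 1 rests on minipig 2 alone at both phases.

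**Figure D2:**
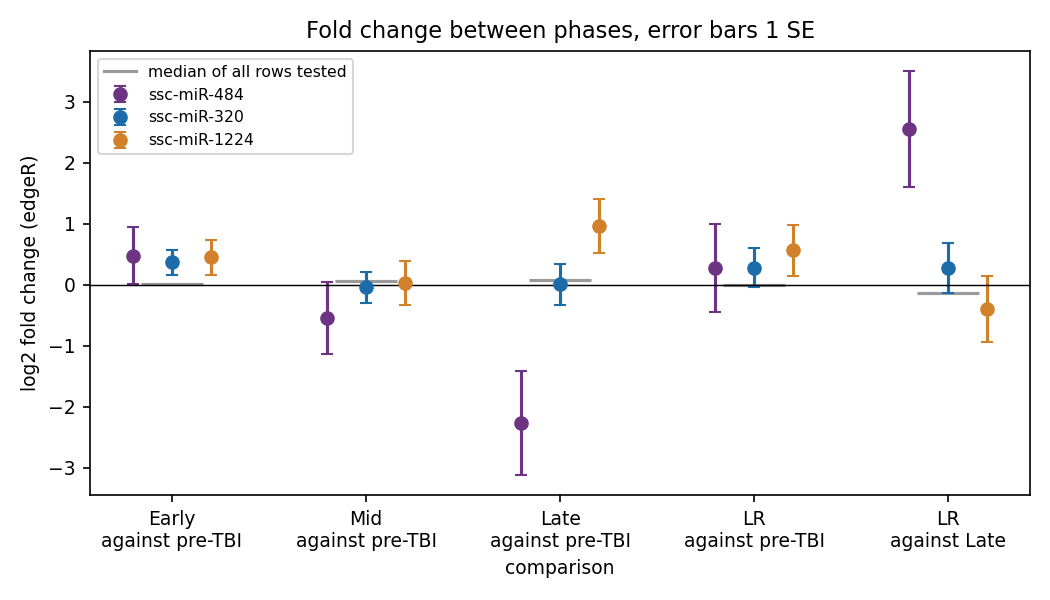
Log2 fold change of each member between phases (points, edgeR quasi-likelihood fit, bars 1 SE), with the median of all 411 rows in grey. The ssc-miR-484 values of -2.27 at Late and 2.55 from Late to LR stand farthest from 0, and ssc-miR-320 stays within 0.36 of 0.

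Tested one time point at a time against the pooled baseline, no member passed an adjusted p of 0.05, and the smallest adjusted p of the members was 0.139, for ssc-miR-484 at 17d. Before 17d none passed the unadjusted threshold either in the fit of all libraries. Under alternatives ssc-miR-1224 did at 1d, higher, with DESeq2 (0.79), with the likelihood ratio test (0.76), with only the 2 groups in the fit (0.74) and without minipig 1 (0.86), minipig 2 (0.79) or minipig 1 at 17d (0.68), and ssc-miR-320 did at 1d without minipig 1 (0.67). Without minipig 2 the 10d value of ssc-miR-1224 was -1.84, past the unadjusted threshold, but it rests on 1 library, minipig 1 with 4 counts, which was taken to vary like the other groups. The share of all rows called on adjusted p was 1.22% for 3d, 0.243% for 14d and 0% for the 4 other time points before 17d. On unadjusted p it was 8.52% for 0d, 12.2% for 1d, 8.52% for 3d, 8.27% for 7d, 7.3% for 10d and 9% for 14d. At 17d, the libraries of Late, 4.87% of all rows were called on adjusted p (16 higher and 4 lower) and 23.8% on unadjusted p. The unadjusted threshold was passed by 2 of the 3 members, ssc-miR-484 lower and ssc-miR-1224 higher. With only the 2 groups in the fit, and without minipig 3, 0 rows were called on adjusted p at 17d. In both of these settings, on the library total alone and with thinned counts the unadjusted call of ssc-miR-1224 was lost. It was also lost with C7 or C1 alone as the baseline, without the row of most counts and with the animal block on thinned counts. That of ssc-miR-484 was lost with only the 2 groups and with C7 alone as the baseline. Without minipig 1, where 17d rests on minipig 2 alone, the ssc-miR-484 change was -1.28. At 20d, the libraries of LR, the shares were 0.73% (3 rows, all higher) and 7.06%, with 0 of 3 members called on either. The mean of ssc-miR-484 was highest at 0d (17.27 ± 0.60, n = 3), then 1d (16.68 ± 0.87), C1 (16.63 ± 0.89), 20d (16.52 ± 0.97, n = 2), 3d (16.40 ± 0.46), 7d (16.30 ± 0.59), 14d (16.28 ± 0.18), C7 (15.70 ± 0.78), 10d (15.20 ± 0.37) and 17d (13.45 ± 2.12). For ssc-miR-320 the order ran from 3d (10.15 ± 0.05) over 0d and 1d (10.13 each) to C7 (9.58 ± 0.38), and for ssc-miR-1224 from 1d (9.04 ± 0.41) to 10d (7.71 ± 1.46). Every pair of neighbours in these orders overlapped in range, 9 of 9 for each member over time points and 4 of 4 over phases.

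Ratios of counts within a library do not depend on its scaling, and they set the members directly against each other. ssc-miR-484 gave a median of 255 counts per count of ssc-miR-1224 before TBI (67.1 to 555), 272 at Early (134 to 471), 211.5 at Mid (74.8 to 474) and 215.5 at LR (134 and 297). At Late the ratio was 20.8 in minipig 1 and 32.5 in minipig 2, both under every other library, although the first rests on 4 counts of ssc-miR-1224. Both Late libraries were shallow, and a ratio does not take out depth. The next lowest ratios also came from shallow libraries, 67.1 in minipig 1 at C7 and 74.8 in minipig 2 at 10d. Minipig 1 at 10d, shallow as well, had 474, on 4 counts of ssc-miR-1224. This ratio was the one readout on which both Late animals stood outside the rest. The levels behind it differed, with ssc-miR-484 lowest of all libraries in minipig 1 and ssc-miR-1224 highest of all libraries in minipig 2. Per count of ssc-miR-320, ssc-miR-484 gave 35.5 to 143 counts before TBI (median 103.5) and 4.15 and 43.8 at Late. Here minipig 1 alone lay outside the pre-TBI range. The ratio of ssc-miR-320 to ssc-miR-1224 was 1.89 to 3.88 before TBI and 5 and 0.74 at Late, so the Late animals lay on either side of the baseline.

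**Figure D3:**
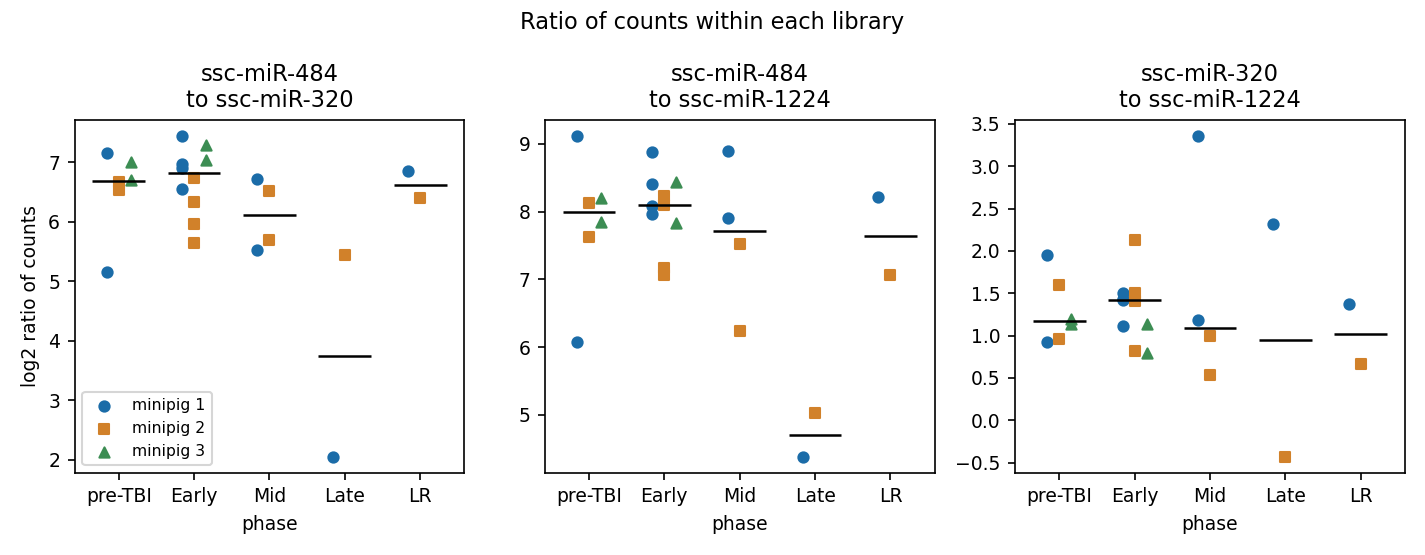
Log2 ratio of counts of member pairs within each library, by phase. Points are libraries, shaped and coloured by minipig, and black bars are medians. Both Late libraries lie below all others in ssc-miR-484 to ssc-miR-1224 (4.38 and 5.02), and they lie apart on either side in ssc-miR-320 to ssc-miR-1224 (2.32 and -0.43).

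Library depth moved with the ssc-miR-484 level. The 5 libraries under 70000 counts, a limit set after the values were seen, held it at 0.285% to 3.77%, and the 19 libraries from 82536 counts upwards held it at 6.02% to 16.9%, without overlap. The shallow set was minipig 1 at C7, both animals at 10d and both at 17d, so 1 of the 5 was unirradiated. Pearson's r between log2 total and log2 CPM over the 24 libraries was 0.67, higher than for 95.6% of rows (median of all rows 0.06), and within minipigs 1, 2 and 3 it was 0.81, 0.70 and 0.81. These are descriptions, and the points share animals. Both Late libraries belong to the shallow set, so Late could be set only against the shallow libraries of the same animals. In minipig 1 the Late share of 0.285% stood against 2.48% at C7 and 3.2% at 10d. In minipig 2, with no shallow pre-TBI library, the Late share of 3.18% stood against 3.77% at 10d, and the log2 CPM of 14.95 against 14.94. With log2 library total as a covariate the Late change of ssc-miR-484 was -1.64 (SE 0.86, edgeR adjusted p = 0.531) and the change from Late to LR 1.47 (SE 1.13, edgeR adjusted p = 0.836). With all libraries thinned to the same total the Late change was -2.39 (SE 0.83, edgeR adjusted p = 0.177), and -2.10 (SE 0.83, edgeR adjusted p = 0.267) with the animal as a block as well.

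Over the 24 libraries the levels of the other members moved less with depth. ssc-miR-320 held a share of 0.0686% to 0.0727% (median 0.0698%) in the 5 shallow libraries and of 0.0593% to 0.13% (median 0.0952%) in the 19 others. Of the 19 only minipig 2 at C1 (0.0593%) lay under the shallow shares, and the rest lay above them. The r of ssc-miR-320 was 0.21 on TMM-scaled values and 0.57 on the library total alone. Within minipigs 1, 2 and 3 its r was 0.69, 0.40 and 0.73. ssc-miR-1224 held 0.00675% to 0.0977% in the shallow and 0.0253% to 0.063% in the other libraries, with r = 0.20 and, within minipigs 1, 2 and 3, of 0.52, -0.49 and 0.60. Its 3 libraries with under 10 counts were all shallow ones of minipig 1, at C7, 10d and 17d. There the counting interval of a share is wide, 0.0195% to 0.0703% at C7, 0.00262% to 0.0173% at 10d and 0.00533% to 0.0353% at 17d. What size of difference could be detected was not tested.

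**Figure D4:**
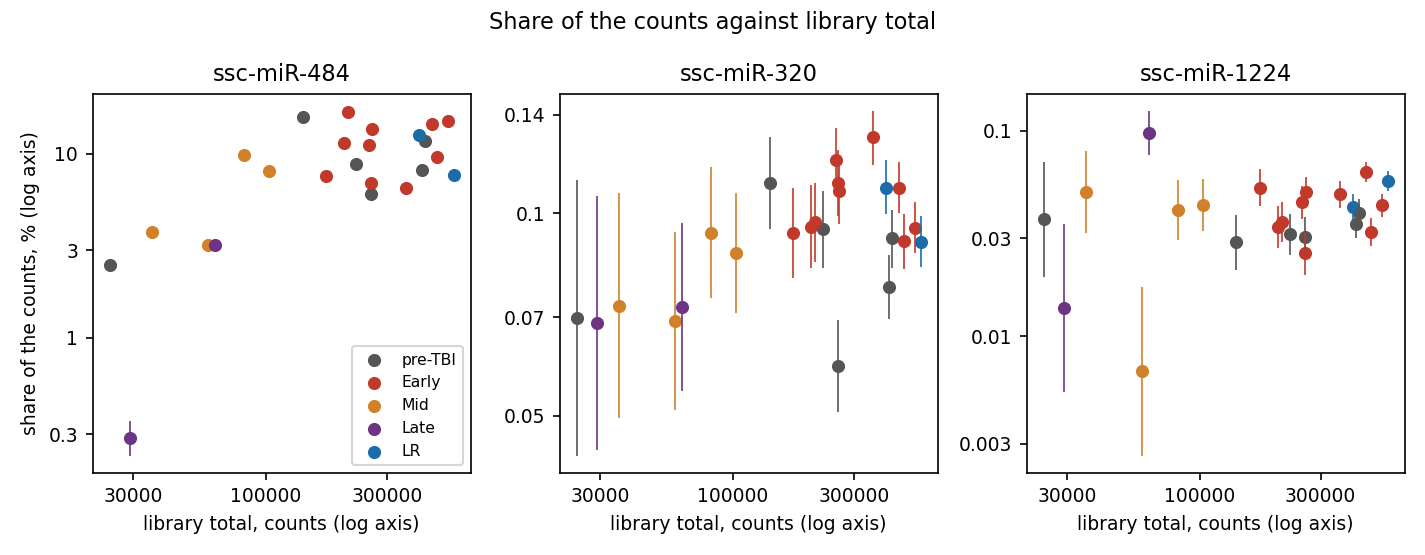
Share of a library's counts taken by each member against the library total, both on log axes, with 95% Wilson intervals as vertical lines and phases in colour. The 5 libraries under 70000 counts hold the lowest ssc-miR-484 shares (0.285% to 3.77%), among them 1 pre-TBI library.

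The members followed one another to differing degrees. Pearson's r of log2 CPM over the 24 libraries was 0.46 between ssc-miR-484 and ssc-miR-320, 0.34 between ssc-miR-484 and ssc-miR-1224 and 0.11 between ssc-miR-320 and ssc-miR-1224. On the library total alone these were 0.63, 0.41 and 0.31. Without the 2 libraries of 17d they were 0.71, 0.41 and 0.26 with TMM. Other rows were far more like ssc-miR-484. The rows most like ssc-miR-484 were ssc-miR-9828-3p (r = 0.97), ssc-miR-125a, ssc-miR-9810-3p, ssc-miR-874 and ssc-miR-1307 (0.96 each), and those least like it were ssc-miR-542-3p (-0.81), ssc-miR-130b (-0.80) and ssc-miR-335 (-0.79). In minipig 1 the 5 most alike rows also had low shares at 17d. ssc-miR-9828-3p went from 3.71% at C1 to 0.209%, ssc-miR-874 from 2.56% to 0.192% and ssc-miR-125a from 0.336% to 0.0274%, beside 15.9% to 0.285% for ssc-miR-484. At C7 their shares in this animal were already lower than at C1, at 1.61%, 0.649% and 0.0781%, beside 2.48% for ssc-miR-484. Each of the 5 also had an r of 0.61 or 0.62 with log2 total. These rows were picked for their likeness to ssc-miR-484 over libraries that include minipig 1 at 17d, so their low shares there follow in part from the choice.

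The rows most like ssc-miR-320 were ssc-miR-671-3p (r = 0.81), ssc-miR-133a-3p (0.79), ssc-miR-708-5p (0.70), ssc-miR-34c and ssc-miR-429 (0.67 each). Those least like it were ssc-miR-9857-5p (-0.75), ssc-miR-299 (-0.71) and ssc-miR-29c (-0.70). On the library total alone the 5 most alike rows had an r from 0.41 to 0.64, beside 0.63 for ssc-miR-484. The lists depend on the measure. With the library total alone 0 of the 5 most alike rows stayed among the top 5 for ssc-miR-320, 2 of 5 for ssc-miR-484 and 3 of 5 for ssc-miR-1224, and with Spearman's rho 1 of 5 stayed for ssc-miR-484. ssc-miR-1224 was most like ssc-miR-339-3p (0.74), ssc-miR-6782-3p (0.65), ssc-miR-7140-5p (0.64), ssc-miR-9845-5p (0.63) and ssc-miR-758 (0.62), and least like ssc-miR-628 (-0.72), ssc-miR-145-3p and ssc-miR-9809-3p (-0.70 each). None of the lists holds another member.

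Other miRNAs known or thought to be made outside the usual Drosha and Dicer route gave 5 rows for a list of 12 numbers. They were ssc-miR-451, the red cell miRNA that skips Dicer and is cut by Argonaute, and both arms of miR-664 and of miR-1839, which overlap small nucleolar RNAs. None of the 5 was called on adjusted p in any phase, beside 4.38% of all rows at Late and 0% in the other phases. On unadjusted p 1 of 5 was called at Mid and 3 of 5 at Late, beside 5.35% and 22.6% of all rows. On unadjusted p ssc-miR-451 was called lower at Mid (-2.42, SE 0.89, edgeR adjusted p = 0.808) and at Late (-2.74, SE 1.26, edgeR adjusted p = 0.192). ssc-miR-664-5p (1.67, SE 0.75) and ssc-miR-1839-5p (1.16, SE 0.53) were called higher at Late on unadjusted p, with edgeR adjusted p = 0.192 and 0.209. Their other arms gave -0.27 for ssc-miR-664-3p and -0.40 for ssc-miR-1839-3p at Late and were not called. Over the 5 rows the median change was 0.10 for Early, -0.27 for Mid, -0.27 for Late and -0.41 for LR, where all rows had 0.02, 0.05, 0.08 and -0.01. Like the members, these rows had changes of both signs at Late.

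Plasma can carry RNA of blood cells, and rows typical of them were read beside the members. The summed share of the 3 red cell rows (ssc-miR-451, ssc-miR-144 and ssc-miR-486, the last with most counts) was 1.02% to 9.02% before TBI, 0.827% to 7.06% at Early and 0.909% to 2.93% at Mid. It was 0.604% and 1.02% at Late and 1.31% and 1.67% at LR. That of the 3 platelet rows, led by ssc-miR-191, was 0.883% to 2.11% before TBI, 1.06% to 7.56% at Early and 0.477% to 1.39% at Mid. It was 0.151% and 0.586% at Late and 0.765% and 0.946% at LR. Red cell and platelet shares thus were low at Late together with ssc-miR-484, and their part in its value was not tested. Both Late libraries were shallow. Of the platelet rows ssc-miR-126-5p gave -1.05 and ssc-miR-126-3p -0.12 at Late, neither called. The 6 white cell rows, led by ssc-miR-342, took 0.165% to 0.331% before TBI and 0.202% and 0.232% at Late. The liver row ssc-miR-122 took 0.0637% to 0.147% before TBI and 0.0331% and 0.127% at Late, and the 8 muscle rows, led by ssc-miR-133a-5p, 0.13% to 0.559% and 0.259% and 0.305%. None of these 21 rows was called on adjusted p in any phase, beside 4.38% of all rows at Late and 0% in the other phases. On unadjusted p 5 were called for Early, 2 for Mid, 4 for Late and 3 for LR, beside 18.7%, 5.35%, 22.6% and 5.6% of all rows. At Late these were ssc-miR-451 and ssc-miR-191 (-2.11, SE 0.78, edgeR adjusted p = 0.118), both lower, and ssc-miR-155-3p (2.34, SE 0.93, edgeR adjusted p = 0.157) and ssc-miR-499-3p (0.92, SE 0.44, edgeR adjusted p = 0.209), both higher. The platelet row ssc-miR-126-5p was called higher at Early (0.83) and LR (1.75), while at LR the other platelet rows gave -1.28 for ssc-miR-191 and 0.27 for ssc-miR-126-3p, neither called. ssc-miR-122 was called lower at Early (-0.79) and LR (-1.39). The log2 ratio of ssc-miR-451 to ssc-miR-23a, which is used to gauge red cell lysis, had a median of 0.83 before TBI (-1.20 to 3.43) and of 1.09, -0.89, -0.88 and 0.88 in the later phases in their order. Its r with the level was 0.32 for ssc-miR-484, 0.19 for ssc-miR-320 and -0.05 for ssc-miR-1224 over 24 libraries.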

How the data were processed

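Small RNA libraries (TruSeq) of plasma were sequenced on a NextSeq. Per the labels and the study's methods, the authors demultiplexed with bcl2fastq, trimmed with cutadapt, used Bowtie2 (2.2.3.0 in the submitters' notes) for alignment, first to the ssc5 assembly and next to miRBase, and quantified miRNAs by miRDeep2. What they deposited are raw counts, without normalization, for 411 ssc-miRNAs in 30 libraries. The 6 libraries under 1000 counts were left out. Every column was matched to 1 sample by its title, and all rows named a miRNA.

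Rows over 0.5 CPM in 3 or more libraries were kept (all 411 passed). The quasi-likelihood test of edgeR 4.0.16 (R 4.3.3) with TMM scaling was fitted to all 24 libraries, with the 5 phases in 1 fit and the time points in others, and p-values were adjusted by Benjamini-Hochberg over all rows. A call is a p under 0.05. The SE is the log2 fold change divided by the root of the F statistic. The common biological coefficient of variation was 0.496, and no 2 libraries of a phase agreed within sampling noise. Single levels were tested by a two-sided exact permutation within animals. Scripts were tested on simulated data. Python was 3.11.15 and DESeq2 1.42.0.

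Libraries with the same number came from the same animal, which pairs them by design. The mean correlation of their deviations from phase means was 0.169 over 78 pairs, against -0.102 over 130 pairs of different animals. The main fit had no animal term, since the study's methods name none, and so treated repeated draws of an animal as separate samples. Named rows were each member, its 5 most and 3 least alike rows by Pearson's r, and the list of other noncanonical miRNAs. Members, lists and tests were chosen with earlier results of these data known. Mature sequences, and a genome of the files' build, were not used here. The alternatives were other scalings, tests, baselines, depths and animals left out. Leaving out minipig 1 at 17d or at C7, a library total without ssc-miR-4332 and ssc-miR-484, the depth covariate and the limit of 70000 counts were chosen after seeing the data.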

Additional observations from a re-analysis of the deposited data

Results flagged for a closer look

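Among 18 checks for a library far from the rest of its group, 2 marked the same library, and chance alone marks about 1 group in 20. ssc-miR-1224 in minipig 1 at 10d lay far below the 3 other Mid libraries, at a log2 CPM of 6.68 with TMM and of 6.24 on the library total alone. It rests on 4 counts.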

How the results depend on the processing

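No member passed an adjusted p of 0.05 at Early, Mid or LR against pre-TBI under any setting run. At Late ssc-miR-484 was lower in all 19 settings (-4.86 to -1.28). It was not called in the main fit (edgeR adjusted p = 0.124) and was called with DESeq2 (-2.26). From Late to LR it was 0.94 to 5.39 (edgeR adjusted p up to 0.836) and was called with DESeq2 (2.47). ssc-miR-1224 at Late was 1.67 without minipig 1 and 1.63 without minipig 1 at 17d. Fits without minipig 1, minipig 2 or minipig 1 at 17d hold 1 Late library, so only their effect sizes are given. The replicate block (animal as a term) gave -1.92 for ssc-miR-484 at Late (edgeR adjusted p = 0.225) and changed no member's call. Over all rows it moved the adjusted calls from Late to LR from 3 to 23 and the unadjusted ones at LR from 23 to 49.

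Signs turned mostly in values near 0, and the cause was not tested. ssc-miR-320 at Late (0.01) was -0.25 on library size, -0.07 with DESeq2 and with thinned counts, -0.13 without the row of most counts, -0.0026 with the likelihood ratio test, -0.15 with the block on thinned counts and without minipig 1 at 17d, -0.09 with the 2 groups alone, -0.04 with C7 and -0.08 with C1 as baseline, -0.35 with every library of at least 1 count, -0.14 without minipig 1 at C7 and with the depth covariate, and -0.53 without ssc-miR-4332 and ssc-miR-484 in the total. Its difference of means was -0.22 on library size. With thinned counts, and then with the block as well, ssc-miR-320 gave -0.40 and -0.54 at LR and -0.34 and -0.39 from Late to LR, and ssc-miR-1224 gave -0.29 and -0.25 at Mid and -0.33 and -0.31 at LR. At Mid ssc-miR-320 was 0.0019 with DESeq2 and 0.07 with C7 as baseline, where ssc-miR-484 was 0.004. ssc-miR-484 at LR was -0.13 with C1 as baseline, -0.31 with every library of at least 1 count, -0.05 without minipig 1 at C7 and -0.18 with the depth covariate. ssc-miR-1224 from Late to LR was 0.02 without the 2 largest rows in the total.

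Fits without 1 of the minipigs gave 0.25 to 0.63 for ssc-miR-484, 0.20 to 0.49 for ssc-miR-320 and 0.24 to 0.50 for ssc-miR-1224 at Early. They gave -1.11 to 1.67 for ssc-miR-1224 at Late, -0.40 to 0.40 at Mid and -1.10 to 1.55 from Late to LR, -4.86 to -1.28 for ssc-miR-484 at Late, -0.34 to 0.52 at LR and 0.94 to 5.39 from Late to LR, and for ssc-miR-320 -0.12 to 0.08 at Mid, -0.20 to 0.0013 at Late, -5.5e-05 to 0.44 at LR and -0.0014 to 0.60 from Late to LR. A phase or time point left with 1 library was then taken to vary like the other groups. At Early the differences of means without 1 minipig were 0.34 to 0.95 for ssc-miR-484, 0.26 to 0.56 for ssc-miR-320 and 0.20 to 0.48 for ssc-miR-1224. For differences of means the ranges were -0.12 to 0.10 at Mid and -0.05 to 0.18 at Late for ssc-miR-320, -0.33 to 0.99 at LR for ssc-miR-484, and -0.83 to 0.46 at Mid and -0.81 to 1.70 at Late for ssc-miR-1224. Adjusted calls over all rows ranged without 1 minipig from 0 to 8 at Early, 9 to 77 at Late, 0 to 6 at LR and 0 to 66 from Late to LR. Over all settings they ranged from 0 to 38 at Early and 0 to 77 at Late, with the same ranges as above at LR and from Late to LR, and were 0 at Mid. Of the members ssc-miR-1224 had the lowest counts, at 4 to 9 in 3 libraries.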
